A study of Mus musculus with 4 samples.

Results

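The nuclear genes of the mitochondrial respiratory chain and of ATP synthase were taken from the deposited table by name. A row belonged to the set if its name began with Nduf followed by a, b, c, s or v and a digit, was Sdha, Sdhb, Sdhc or Sdhd, or began with Uqcr, Cox4 to Cox8 or Atp5. It also needed a summed count of at least 100 over the 4 libraries. Of 24421 rows, 84 had such a name and 81 reached the count. These were 37 genes of complex I, 4 of complex II, 8 of complex III, 15 of complex IV and 17 of complex V. The summed count chose the members, so their levels are a description. Cox7a1 with 124 counts and Atp5s with 138 lay just inside the limit, and Cox8b with 69 lay just outside. Cox7b2 and Cox8c had 0 counts in every library. All 81 members passed the filter on low counts and were tested.

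The respiratory chain sits in the inner mitochondrial membrane and moves electrons from NADH and succinate to oxygen. Complex I (NADH dehydrogenase), complex III (the cytochrome bc1 complex) and complex IV (cytochrome c oxidase) pump protons, and complex V (ATP synthase) uses the proton gradient to make ATP. Complex II (succinate dehydrogenase) is also an enzyme of the citric acid cycle and pumps no protons. Nuclear genes encode all of complex II and most subunits of the others, while the mitochondrial genome encodes the rest. Articular cartilage has no vessels, and its chondrocytes draw most of their ATP from glycolysis. Names do not settle membership in every case. Ndufa4 was named as a complex I gene but its protein is held to be part of complex IV, Cox7a2l acts in joining complexes III and IV, and Atp5s and Atp5sl are not structural subunits.

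Messenger RNA came from the surface layer of knee cartilage on the medial femoral condyle, taken 8 weeks after surgery from mice M04 and M05 of strain C57BL/6J. In each mouse 1 knee had undergone destabilization of the medial meniscus (DMM), which leads to osteoarthritis, and the other a sham operation, and every knee gave 1 library. Where values come in pairs below, the sham knee stands first and the DMM knee second. Both mice are wild type by their sample labels, whereas the design text of the series has M05 as a knockout, with no gene named. No ages are given. The free text of both sham samples speaks of a knee operated by DMM. Their titles and treatment fields say sham and were followed. Every DMM against sham value rests on that choice. M05 against M04 is therefore a comparison of 2 animals.

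Each library held between 12712425 and 19336628 counts, and markers of blood cells were abundant in all of them. The 8 erythroid markers found in the table summed to between 211446 and 281967 CPM (counts scaled to library size). The 9 neutrophil markers summed to 43955 to 60468 CPM. The 12 chondrocyte markers, among them Col2a1, Acan and Prg4, were all detected but summed to only 1273 to 7129 CPM, lowest in the sham library of M05. All subunit transcripts described here come from this mixture, and in such bulk samples fewer cells of a type and less RNA per cell cannot be told apart.

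Levels differed between the complexes and within them. FPKM, which scales for transcript length, served to compare levels between genes. Atp5k (321.5 bases) and Atp5h (625 bases) had means of 92.8 and 333 CPM, but of 929 and 875 FPKM. The deposited FPKM thus raise short transcripts more than a division by these lengths would. Ranks and ranges between genes depend on that scaling. The median over genes of the mean FPKM was 64.5 in complex II, 113 in complex I, 253 in complex III, 254 in complex IV and 291 in complex V. Complex II was also the most even, with 1.75-fold between Sdhb, the iron-sulfur subunit (104), and Sdha, the flavoprotein (59.2). In complex III the range was 12.3-fold, from Uqcrh, the hinge protein (723), to Uqcrfs1, the Rieske iron-sulfur protein (58.7). In complex I it was 48.7-fold, from Ndufa3, a small accessory subunit (739), to Ndufs1, the largest core subunit (15.2).

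**Figure D1:**
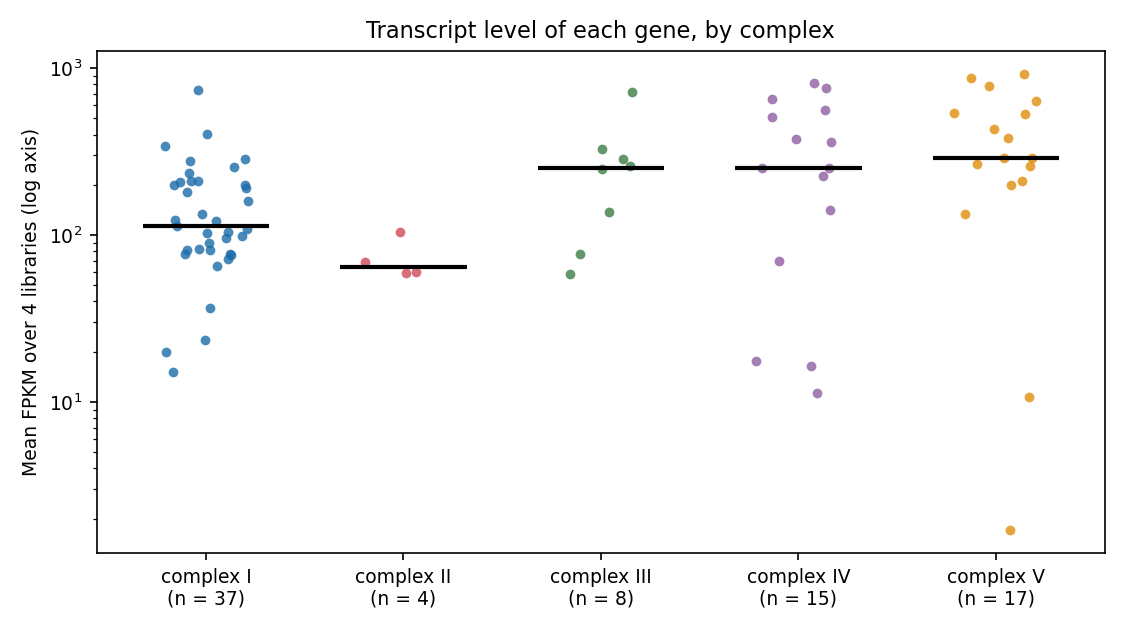
Mean FPKM over the 4 libraries (log axis) for each of the 81 genes, grouped by complex, with a bar at the median of each complex. Complex V has the highest median (291) and complex II the lowest (64.5), and the lowest point in complex V is Atp5s at 1.70.

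By FPKM, the 4 highest levels belonged to complexes V and IV. Atp5k, which encodes subunit e in the membrane part of ATP synthase, had a mean of 929 FPKM, and Atp5h, which encodes subunit d of the peripheral stalk, had 875. Cox6a1, the common isoform of cytochrome c oxidase subunit VIa, had 821, and Atp5e, the epsilon subunit of the central stalk, had 778. By counts instead, which favour long transcripts, Atp5b, the catalytic beta subunit, led with 855 and 830 TMM-normalised CPM in M04, against 907 and 943 in M05. The 3 genes of the ring subunit c, whose mature proteins are the same, split its FPKM in nearly fixed shares. Atp5g2 gave 45.1% to 48.4%, Atp5g3 29.7% to 32.7% and Atp5g1 20.7% to 22.2% of their sum in the 4 libraries.

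As a whole the set took 0.915% of all counts in the sham knee of M04 (0.909 to 0.920, a 95% interval by Wilson's method) and 1.005% after DMM (0.9996 to 1.0103). For M05 the shares were 0.978% (0.973 to 0.982) and 1.05% (1.04 to 1.05). These intervals cover counting error only. Within the set, complex II gave a larger share in M04, with 4.05% and 4.17% of member counts, than in M05, with 3.44% and 3.79%. Complex V followed the same order, with 39.5% and 38.8% in M04 and 37.7% and 38.0% in M05. Complex I was reversed, at 26.3% and 27.3% against 27.9% and 27.5%, and so was complex IV, at 20.7% and 20.6% against 21.1% and 21.2%. For complex III M04 had 9.47% and 9.10% and M05 had 9.89% and 9.50%, with hardly a gap between the mice. Between knees, the share of complex II was larger after DMM in both mice and that of complex III smaller in both, while complexes I, IV and V went opposite ways in the mice.

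The first comparison asked whether subunit transcripts differed between DMM and sham knees. Few genes passed, in the set or outside it, and with 1 residual degree of freedom a gene that did not pass may still differ. By edgeR's quasi-likelihood test with the mouse as a block and Benjamini-Hochberg adjustment over 13103 genes, 1 of the 81 passed an adjusted p of 0.05, Ndufa4l2, which was higher, and 0 were lower. Of all genes tested, 0.633% passed as higher and 0.0153% as lower. At an unadjusted p under 0.05, 2 members were higher (Ndufa4l2 and Cox4i2) and 3 were lower (Cox6c, Cox6a2 and Atp5l), beside 3.12% and 2.08% of all genes tested. DESeq2 called 0 members in either direction, and 1 had an unadjusted p under 0.05. The median log2 fold change was 0.01 over the members and -0.01 over all genes tested. With library totals in place of TMM both moved up by 0.11, to 0.12 and 0.10, and 66 of the 81 members were positive, against 42.

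The medians of the complexes lay near 0 in this comparison. They were 0.02 for complex I, 0.09 for complex II, -0.05 for complex III, 0.01 for complex IV and 0.01 for complex V. All 4 genes of complex II had a positive fold change, from 0.05 for Sdhb to 0.19 for Sdhc, which anchors the complex in the membrane, and none passed. In complex III 2 of 8 were positive, from -0.24 for Uqcrq to 0.04 for Uqcrfs1. Leaving out genes under a mean of 5 CPM, Ndufb6, a membrane-arm subunit, was lowest in complex I (-0.20), and Atp5o, the oligomycin sensitivity protein of the peripheral stalk, was highest in complex V (0.15). Positive values were found for 19 of 37 genes in complex I, 8 of 15 in complex IV and 9 of 17 in complex V, where 47.9% of all genes tested were positive. After TMM scaling, both DMM libraries lay above both sham libraries for 6 of the 81 genes, against 13.2% of all genes tested. These 6 were Ndufa10, Ndufs1, Ndufa4l2, Sdha, Sdhc and Cox4i2. They lay below for 2, Cox6a2 and Atp5sl, against 12.3% of all genes. The medians moved with the libraries used. Over the members, fits of 3 libraries without the mouse term gave -0.18 without the DMM library of M05 and 0.21 without the sham library of M05.

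**Figure D2:**
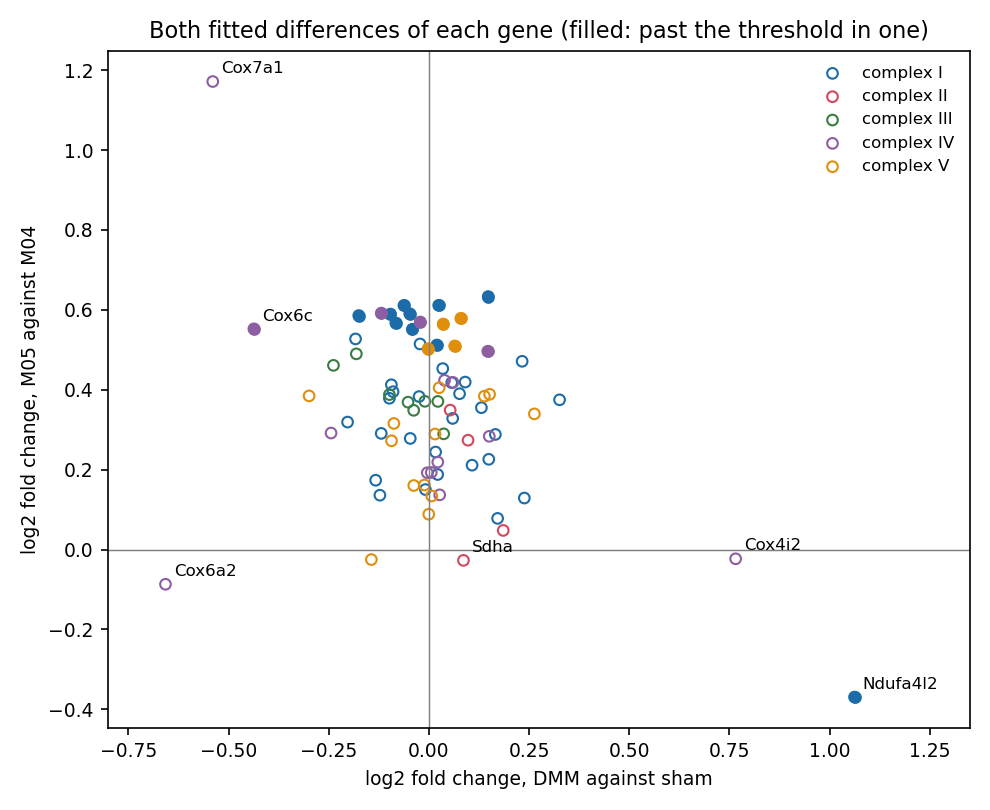
Each of the 81 genes by its log2 fold change for DMM against sham (horizontal) and for M05 against M04 (vertical), coloured by complex, with filled points for genes past an adjusted p of 0.05 in 1 of the comparisons. Most points gather near 0 on the horizontal axis and above 0 on the vertical one, and Ndufa4l2 stands alone at the lower right with 1.06 and -0.37.

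Ndufa4l2 encodes a relative of Ndufa4 that is known as a target of the hypoxia-inducible factor HIF-1 and as a brake on oxygen use. Its transcript had 14.3 and 16.6 TMM-normalised CPM in M04, against 5.81 and 22.7 in M05. The DMM libraries lay above the sham libraries, and the sham library of M05 was far below the other 3. It rose by 1.06 on the log2 scale in DMM knees (SE 0.24, edgeR adjusted p = 0.00427), with a within-mouse log2 ratio of 0.21 for M04 and 1.95 for M05. It passed in 1 of 4 fits of 3 libraries: the fold change was 1.76 without the sham library of M04 and passed. It was 0.46 without the sham library of M05, 1.19 without the DMM library of M04 and 0.73 without the DMM library of M05, and did not pass in these. The call was also lost without the mouse term (0.98, adjusted p = 0.9999), with RLE size factors, library totals or TMM without haemoglobin rows, and with DESeq2 or limma. Its adjusted p-values over the alternatives ran from 0.000150 to 0.99999. Its exons share 32 bases with Shmt2 on the other strand, and whether the libraries kept strand is not stated.

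Cox4i2, the isoform of cytochrome c oxidase subunit IV known from lung and from oxygen sensing, showed the same order of libraries. M04 had 7.70 and 9.16 TMM-normalised CPM of it, and M05 had 5.22 and 12.7. Its log2 fold change of 0.77 did not pass (SE 0.30, edgeR adjusted p = 0.497). Their common partners did not share this order: Ndufa4 had log2 ratios of 0.14 in M04 and -0.38 in M05, and Cox4i1 had 0.16 and -0.04. As a share of the pair's FPKM, Ndufa4l2 gave 6.15% and 6.26% in M04, against 1.80% and 8.57% in M05. The 12 chondrocyte markers were also lowest in the sham library of M05, but highest in the DMM library of M04, summing to 5691 and 7129 CPM in M04 and to 1273 and 4466 CPM in M05, with median log2 ratios of 0.28 and 1.50. Their part in the values of Ndufa4l2 and Cox4i2 was not tested.

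A pair of muscle isoforms of complex IV differed between the knees in opposite directions in the 2 mice. Cox7a1, the heart and muscle isoform of subunit VIIa, stood at 0.444 and 1.67 TMM-normalised CPM in M04, against 4.87 and 0.821 in M05. It was thus higher in the DMM knee of M04 and in the sham knee of M05, with log2 ratios of 1.63 and -2.38 and a fitted log2 fold change of -0.54 (SE 0.70), which did not pass. Cox8b, the muscle isoform of subunit VIII, came short of the count limit and had 0 and 20 counts in M04 and 47 and 2 in M05. Its FPKM was listed at 0 and 8.28 for M04, against 17.1 and 1.03 for M05. Their ubiquitous partners were far more even, with Cox7a2 at 107 and 122 CPM in M04 and 156 and 168 in M05, and Cox8a at 183 and 183 against 197 and 205.

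The 18 skeletal muscle markers, among them Acta1, Myh4 and Ckm, summed to 273 and 740 CPM in M04 and to 793 and 271 CPM in M05, highest in the same libraries as Cox7a1 and Cox8b. At least 17 of the 18 were above 0 in each library. Both isoforms are also known from brown fat. Of its 5 markers, 2 to 3 were above 0 in each library, summing to 2.02 to 6.56 CPM, nearly all of it Dio2, which was lower in value in M05, and Ucp1 had 0 counts in every library. Cox6a2, the third muscle isoform, was higher in the sham knee of M05 and level in M04: it had 8.15 and 8.02 CPM in M04 and 11.7 and 4.68 in M05 (log2 fold change -0.66, SE 0.31, edgeR adjusted p = 0.830). Its exons share 70 bases with Itgad, a leukocyte integrin gene, on the other strand. The part of muscle RNA in these values was not tested.

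**Figure D3:**
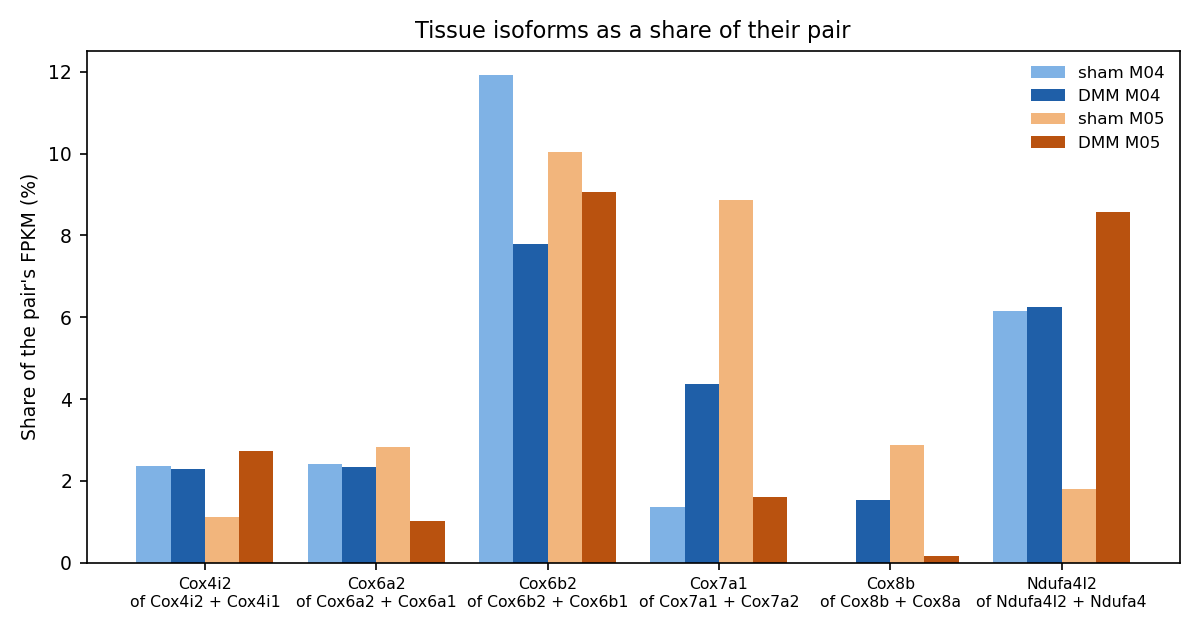
Share of each tissue isoform in the summed FPKM of the isoform and its common partner, in percent, for the 4 libraries. The bars for Cox7a1 and Cox8b are highest in the sham library of M05 (8.86% and 2.89%) and next in the DMM library of M04, whereas those for Cox4i2 and Ndufa4l2 are lowest in the sham library of M05 (1.12% and 1.80%).

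Cox6b2, known as the testis isoform of subunit VIb, was the most abundant of the tissue isoforms relative to its partner. It gave 11.9% and 7.78% of the FPKM of the pair with Cox6b1 in M04, and 10.03% and 9.06% in M05. Its 16.1 CPM in the DMM library of M04 stood below the 23.6 to 25.3 CPM of the other 3 libraries. The log2 fold change of -0.24 did not pass (SE 0.20 by edgeR).

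Several ubiquitous small subunits were highest in the sham knee of M05. Cox6c, a small subunit of cytochrome c oxidase, stood at 87.4 and 85.4 TMM-normalised CPM in M04, against 169 and 94.7 in M05. Only the sham library of M05 stood apart, and the log2 fold change for DMM of -0.44 did not pass (SE 0.16, edgeR adjusted p = 0.355). Without the sham library of M05 it was 0.04, and without that of M04 it was -0.91 and passed. Ndufc1 and Ndufc2, which sit together in the membrane arm of complex I, had log2 ratios of 0.29 each in M04 and of -0.63 and -0.62 in M05. Uqcrq, a small subunit of complex III, had 0.08 and -0.55, and Atp5l, subunit g of ATP synthase, had -0.10 and -0.50. At the other end, Ndufa10, an accessory subunit of complex I, had 0.04 and 0.43. After TMM scaling, the sham library of M05 was highest for 43 of the 81 genes, against 27.0% of all genes tested. The sham library of M04 was lowest for 47, against 25.0%.

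Across the set the signs within each mouse were mixed. The DMM to sham ratio was above 0 in both mice for 18 genes and below 0 in both for 11. It was above 0 in M04 and below 0 in M05 for 33, and the reverse for 19. Complex I had 28 of 37 genes above 0 in M04 and 17 in M05. Over all members 51 were above 0 in M04 and 37 in M05, where 6658 and 6366 of the 13103 genes tested were. Signs in both mice together were not counted over all genes. Whether the 2 mice responded differently to surgery could not be tested with 1 library per knee.

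The second comparison set M05 against M04, with the surgery as the other term of the same fit. The knees of each mouse are its only replicates there, so the p-values do not measure variation between animals. Here most members were higher in M05. Of the 81 genes 76 had a positive fold change, where 49.1% of all genes tested did. By edgeR's quasi-likelihood test 17 members (21.0%) were higher in M05 past an adjusted p of 0.05 and 0 were lower, where 0.962% of all genes tested passed as higher and 1.64% as lower. The median log2 fold change was 0.37 over the members and -0.01 over all genes tested. After TMM scaling, both libraries of M05 lay above both libraries of M04 for 68 of the 81 genes. They did so for 22.5% of all genes tested. By plain CPM the mice overlapped for most of the 68, Uqcrh and Sdhb among them, so this separation rests largely on the scaling. The TMM factors were 1.05 (sham) and 1.13 (DMM) in M04, against 0.88 and 0.96 in M05. Some called genes overlapped too. In the DMM libraries, Ndufb2 had 38.0 CPM in M04 and 35.3 in M05, and Cox6c had 96.3 and 90.7. None of the 81 had both below, as 22.8% of all genes tested had.

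**Figure D4:**
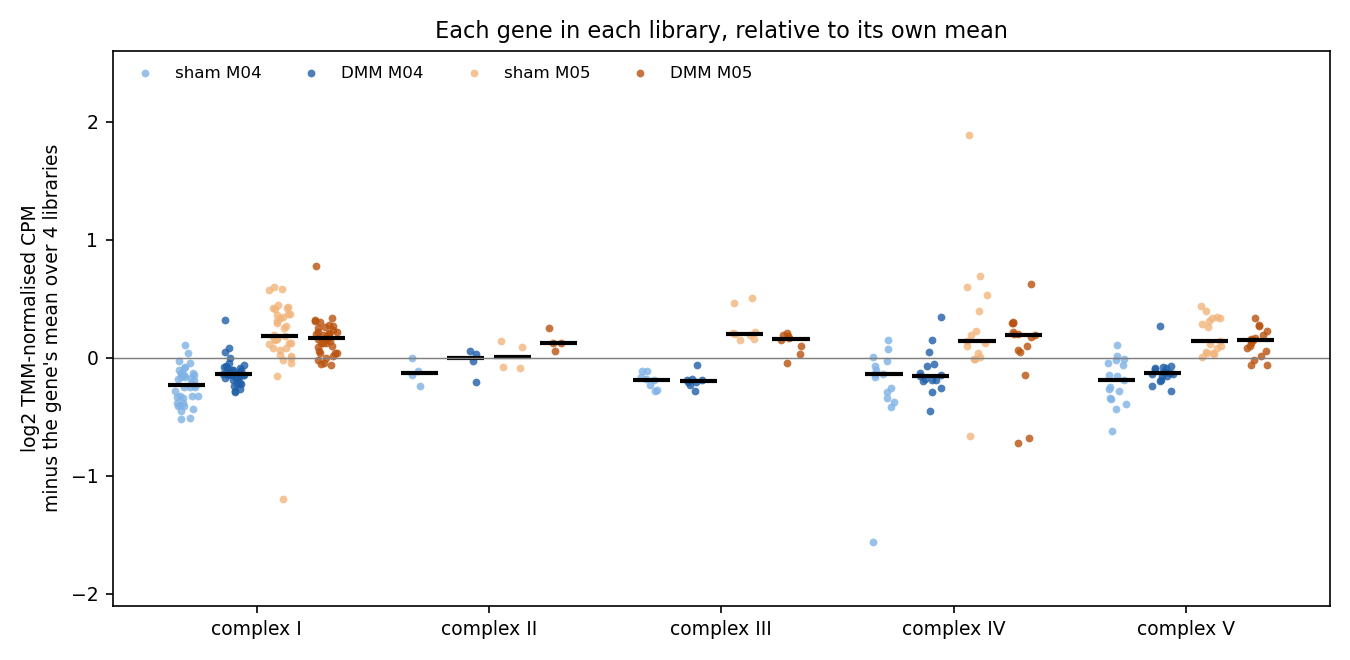
Log2 TMM-normalised CPM of each gene in each library minus that gene's mean over the 4 libraries, by complex, with a bar at the median of each group of points. In complexes I, III, IV and V the medians of M05 lie above 0 and those of M04 below 0, while complex II shows the smallest gap, and the extreme points in complexes I and IV include Ndufa4l2 and Cox7a1.

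The number of calls in this comparison depended on the fit, more than the median did. At an unadjusted p under 0.05, 46 members were higher and 0 lower, beside 6.72% and 7.57% of all genes tested. Without the surgery term 49 members had such a p, and 0 of the 13103 genes passed the adjusted threshold, members included. DESeq2 called 33 genes higher and 24 lower, among them 1 member, Ndufa13, with 35 members at an unadjusted p under 0.05. In fits of 3 libraries, 0 members were called without the sham library of M04, the DMM library of M04 or the sham library of M05, where 0, 2 and 58 genes passed in all. Without the DMM library of M05 19 members were higher and 1, Ndufa4l2, was lower, among 200 higher and 131 lower genes. The median over the members stayed between 0.33 and 0.37 in those fits. Scaling by library totals in place of TMM moved the median of all genes by -0.24, to -0.25. The median of the members fell to 0.13, with 59 of the 81 positive. The gap between members and all genes was 0.38 under both scalings. A change of scaling moves all genes nearly alike, so the equal gap is no check.

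In complex I 9 of 37 genes were higher in M05, and all 9 encode accessory subunits, Ndufs4 and Ndufs6 included. Ndufa6, a subunit of the electron-transfer arm, had 50.4 and 66.3 TMM-normalised CPM in M04 and 92.7 and 87.0 in M05 (log2 fold change 0.63, SE 0.16, edgeR adjusted p = 0.00617). Ndufa13, a membrane-arm subunit also known as GRIM-19, had 101 and 103 CPM against 154 and 156 (0.61, SE 0.15, adjusted p = 0.00693). Ndufb8 had 92.9 and 108 against 163 and 132 CPM (0.55, adjusted p = 0.0207), and Ndufb4 36.8 and 38.4 against 61.6 and 51.9 (0.59, adjusted p = 0.0229). For all 4 genes both libraries of M05 exceeded both of M04. Ndufs4, which is mutated in a form of Leigh syndrome, reached 0.59 (adjusted p = 0.0220).

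The 7 catalytic core subunits of complex I had smaller values. They carry the flavin and the iron-sulfur clusters along which electrons run from NADH to ubiquinone. None passed, all 7 were positive, and their median was 0.17, against 0.40 for the other 30 members, a gap that was not tested. Ndufs1 had 32.7 and 37.0 TMM-normalised CPM in M04 and 34.7 and 38.9 in M05 (0.08). Ndufv1, which binds the flavin, lay near it (0.17), and Ndufv2 lay higher (0.42). The median transcript length was 977 bases for the core and 627 bases for the other 30. These lengths are rough, since Ndufs1, the largest core subunit, is listed at only 651 bases.

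Complex II showed the smallest difference between the mice, with a median of 0.16. Sdha, the succinate-oxidising flavoprotein, had 156 and 160 TMM-normalised CPM in M04 and 148 and 163 in M05, so the mice overlapped (-0.03, SE 0.15, edgeR adjusted p = 0.972). Sdhc overlapped too, with 53.9 and 60.7 against 55.1 and 63.4 CPM (0.05). Sdhb had 81.2 and 78.1 against 95.9 and 107 CPM (0.35, adjusted p = 0.243), and Sdhd, the other membrane anchor, had 62.8 and 72.8 against 82.2 and 81.3 (0.27, adjusted p = 0.432). For these last 2 genes both M05 libraries lay above both M04 libraries after TMM scaling, but the mice overlapped by plain CPM. None of the 4 passed, and no test compared this complex with the others.

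Complex III was the most uniform. After TMM scaling, both libraries of M05 lay above both of M04 for all 8 genes. By plain CPM the mice overlapped for Uqcrh, Uqcrq and Uqcrfs1. The fold changes ran only from 0.29 for Uqcrfs1 to 0.49 for Uqcr11, a small subunit. None passed, the nearest being Uqcr11 (SE 0.16, edgeR adjusted p = 0.0613). Uqcrc1 and Uqcrc2, the large core proteins that face the matrix, reached 0.35 and 0.39. Uqcrh had 217 and 215 TMM-normalised CPM in M04 and 274 and 285 in M05 (0.37).

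In complex IV 4 of 15 genes were higher in M05, all of them small ubiquitous subunits. Cox7b had 82.5 and 97.2 TMM-normalised CPM in M04 and 159 and 115 in M05 (0.59, SE 0.16, edgeR adjusted p = 0.0115), and its fold change without the sham library of M05 was 0.35. Cox7c reached 0.57, Cox6c 0.55 and Cox7a2 0.50, with adjusted p-values of 0.0163, 0.0223 and 0.0471. In Cox6c, M05 lay above M04 mainly through its sham library, and the fold change was 0.13 without that library and 0.97 without the DMM library of M05. Cox8a (0.14), Cox5a (0.19), Cox7a2l (0.19) and Cox5b (0.22) did not pass, and the mice overlapped for Cox5a. Cox4i1, the ubiquitous subunit IV and the most counted transcript of the complex, had 322 and 360 against 461 and 448 CPM (0.42, adjusted p = 0.135). Cox4i2, Cox6a2 and Cox6b2, at -0.02, -0.09 and 0.29, overlapped between the mice.

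In complex V 4 of 17 genes were higher in M05. Atp5k had 70.1 and 80.9 TMM-normalised CPM in M04 and 114 and 111 in M05 (0.58, SE 0.16, edgeR adjusted p = 0.0144). Atp5e (0.56), Atp5j, coupling factor 6 of the peripheral stalk (0.51), and Atp5j2, subunit f (0.50), had adjusted p-values of 0.0160, 0.0402 and 0.0425. The catalytic head itself was nearly level. Atp5a1, the alpha subunit, had 585 and 556 against 591 and 621 CPM (0.09, SE 0.16), and Atp5b reached 0.13 (SE 0.16). The gamma subunit Atp5c1, the shaft of the rotor, had 165 and 185 against 240.0 and 223 CPM (0.40, adjusted p = 0.137). The subunit c genes reached 0.16 for Atp5g1, 0.16 for Atp5g2 and 0.29 for Atp5g3.

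Transcript length moved with the difference between the mice, in the set and outside it. Lengths are medians over the protein-coding transcripts of a gene in GENCODE M21. They were found for 80 of the 81 members, with a median of 669.5 bases. For some genes they are doubtful. Ndufs1, listed at 651 bases, had 36.0 CPM and 15.2 FPKM, and Ndufb2, listed at 2413 bases, had 36.6 CPM and 108 FPKM. The deposited FPKM thus treat Ndufs1 as the longer of this pair. The length classes and correlations rest on the listed lengths. Among all other genes tested, the median M05 to M04 fold change was 0.22 for transcripts up to 500 bases and 0.16 for those over 500 and up to 700 bases. It was 0.13 up to 1000 bases, 0.12 up to 1500, 0.00 up to 3000 and -0.19 above 3000 bases. Members lay higher in each class they fill, at 0.42 (12 genes), 0.38 (30 genes), 0.36 (20 genes), 0.32 (13 genes) and 0.13 (5 genes) in the same order. Across genes, which are not independent, Spearman's rho with length was -0.31 in the 80 members and -0.37 over 12208 genes tested. The part of length in the differences between complexes was not tested.

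**Figure D5:**
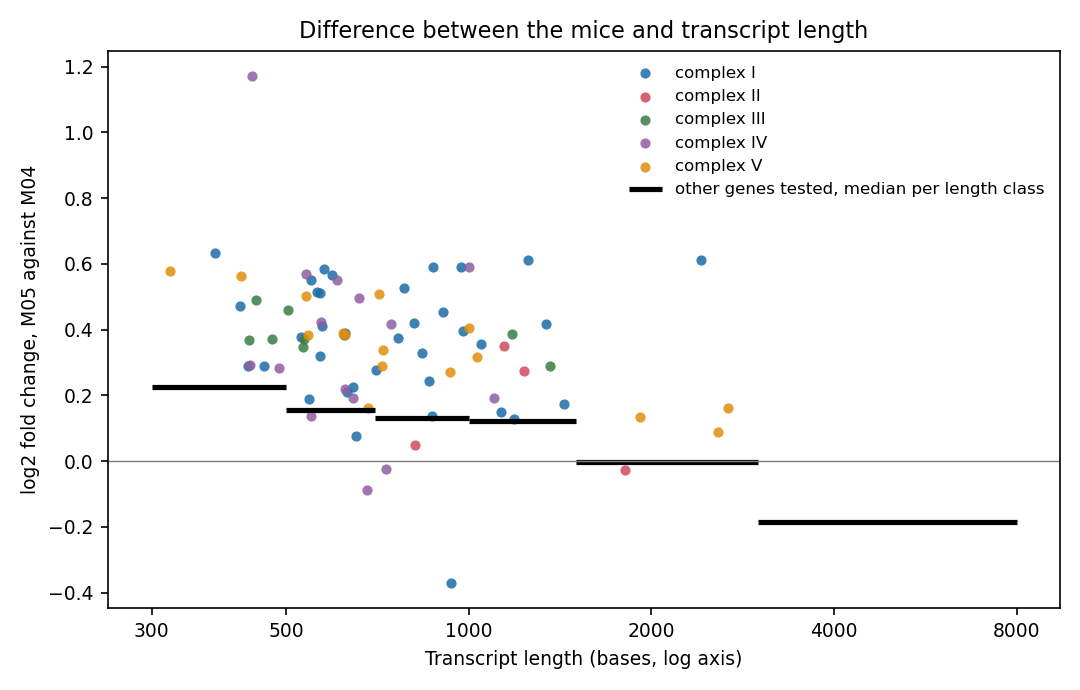
Log2 fold change of M05 against M04 for each member (points, coloured by complex) over its transcript length in bases (log axis), with black bars at the median of all other genes tested in each length class. The bars step down from 0.22 for the shortest to -0.19 for the longest class, and most points lie above the bar of their class.

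Cell type markers differed between the mice as well. The 9 neutrophil markers had a median fold change of 0.40 for M05 against M04, and S100a8 and S100a9 passed as higher. The 8 erythroid markers had a median of 0.35, and 0 passed. All 12 chondrocyte markers were lower in value in M05, and 9 passed. The part of these marker differences in the subunit values was not tested.

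Promoters of these genes are known for sites of NRF-1, a factor that controls many nuclear genes of mitochondria. RefSeq promoters (GRCm38.p6, 250 bases before to 50 after the start) were matched for 67 members, 64 by symbol and 3 by a synonym. On either strand, 17 of the 67 (25.4%) held the NRF-1 motif (GCGC, any base, then TGCGC), against 5.19% of all 27025 genes with a promoter and 11.1% of those among the genes tested. By complex these were 7 of 32 in complex I, 2 of 3 in complex II, 1 of 5 in complex III, 1 of 11 in complex IV and 6 of 16 in complex V. The YY1 motif AAGATGGC was in 11 of the 67 (16.4%), against 5.12% of the genes tested, and the GABP motif CCGGAAGT in 5 (7.46%), against 8.64%. A match is a description of letters, not of binding.

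Upstream stretches of 4 members are shown, since they hold this motif while the genes differ in how they moved: 200 bases before the start, on the minus strand of GRCm38.p6, 5′ to 3′, with NRF-1 matches on either strand in capitals. Ndufb4 and Atp5k were called higher in M05, Cox6a1 was not (0.42, adjusted p = 0.116), and Sdha was level.
Ndufb4 (chr16:37654369-37654568, 3 matches): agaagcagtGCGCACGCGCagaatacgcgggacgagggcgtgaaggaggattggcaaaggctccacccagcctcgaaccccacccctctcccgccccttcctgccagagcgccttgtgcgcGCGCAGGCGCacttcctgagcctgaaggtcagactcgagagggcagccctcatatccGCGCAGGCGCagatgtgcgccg
Atp5k (chr5:108434400-108434599, 1 match): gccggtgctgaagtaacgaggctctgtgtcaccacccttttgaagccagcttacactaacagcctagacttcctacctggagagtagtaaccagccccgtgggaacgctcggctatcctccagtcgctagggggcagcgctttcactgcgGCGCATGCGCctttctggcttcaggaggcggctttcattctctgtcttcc
Cox6a1 (chr5:115348959-115349158, 2 matches): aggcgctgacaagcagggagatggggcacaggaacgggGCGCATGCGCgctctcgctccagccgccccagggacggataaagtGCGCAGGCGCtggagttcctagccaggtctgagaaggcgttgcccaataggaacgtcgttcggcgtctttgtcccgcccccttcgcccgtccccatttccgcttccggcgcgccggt
Sdha (chr13:74350241-74350440, 3 matches): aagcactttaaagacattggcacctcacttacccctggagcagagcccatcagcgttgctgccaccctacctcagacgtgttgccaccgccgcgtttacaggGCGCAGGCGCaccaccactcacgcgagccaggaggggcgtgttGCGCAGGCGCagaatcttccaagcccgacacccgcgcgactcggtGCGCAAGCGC
The genes shown were picked with their fold changes known. Whether such matches go with the difference between the mice was not tested.

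Other genes of the pathway were read from the same fit. Of all genes tested, 0.633% passed as higher and 0.0153% as lower for DMM against sham. For M05 against M04 these shares were 0.962% and 1.64%, and 49.1% were positive. None of the assembly factor genes passed for DMM against sham, with 14 tested for complex I, 4 for complex II, 6 for complex III, 21 for complex IV and 4 for ATP synthase. For M05 against M04 their medians were 0.06, 0.68, 0.19, 0.20 and 0.18, beside 0.38, 0.16, 0.37, 0.29 and 0.34 for the subunits of the same complexes. Of them 2 of the 21 for complex IV (9.52%) were higher in M05. These were Coa6, which helps deliver copper to the enzyme (1.11, SE 0.31, edgeR adjusted p = 0.0203), and Pet100 (0.59, SE 0.17, adjusted p = 0.0243). The 14 genes of the citric acid cycle had a median of 0.08 and the 11 tested regulators of mitochondrial biogenesis of 0.02, and 0 of either passed in either comparison. Ppargc1a, the coactivator PGC-1 alpha, had at most 0.16 CPM. Of 77 mitochondrial ribosomal protein genes, a list added after values were seen, 70 were positive with a median of 0.27. Of the 77, 3 (3.90%) were higher (Mrpl20, Mrps16 and Mrps18c). Of 39 proteasome genes, also added then, 35 were positive with a median of 0.23 and 0 passed. None of the 13 mitochondrially encoded genes was found by name in the deposited table, so they could not be tested.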

How the data were processed

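Poly(A) RNA was sequenced as single-end reads of 100 bases, per the labels' protocols. The submitters' processing notes name build GRCm39 (mm39). How reads were aligned and counted, and whether strand was kept, is not given in the sources used here. The deposited table holds estimated counts, of which 9.21% to 10.9% per library were not whole. It lists each library in 2 columns, equal in all 24421 rows, and each library was used once. The deposited FPKM values were made by the authors and served for levels between genes and for alternatives.

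Counts were rounded and tested on the whole table with edgeR 4.0.16 (R 4.3.3): filterByExpr (13103 genes), TMM, robust quasi-likelihood fit with mouse and surgery as terms, threshold 0.05 on Benjamini-Hochberg values. The fit leaves 1 residual degree of freedom, and for 83.0% of genes the spread came from the trend across genes, so p-values hardly measure how the 2 mice differ. Mouse is a term since, per the labels, 1 animal gave each sham and DMM pair. Libraries of the same mouse deviated from their group means with a correlation of 0.13. Within-mouse ratios (log2 CPM, TMM factors, prior count 2) have no test. The code was tested on simulated data. DESeq2 1.42.0 and limma 3.58.1 served as alternatives.

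Members and gene lists were chosen with earlier results of these data known. Genes named by rule were those past the threshold (up to 10 per direction), the extremes of each complex, tissue isoforms and catalytic subunits. Others were named by role after their values were seen. Of the 81 members, 23 had a count that is not whole in at least 1 library, so some reads may be shared with copies, and the exons of 23 overlap another gene. The values of 1 member are not reported here.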

Additional observations from a re-analysis of the deposited data

How the results depend on the processing

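The call of 1 higher member in DMM knees, Ndufa4l2, was lost (0 called), at fold changes of 0.98 to 1.18 against 1.06, with no replicate block, RLE size factors, library totals without TMM, TMM without haemoglobin rows, DESeq2, and limma on log2(FPKM + 1) or log2(FPKM + 0.1). Leaving out a library gave 0 to 1 higher and 0 to 1 lower. For M05 against M04, in place of 17 higher members there were 0 in the matching fit with the mouse as its only term, 3 with RLE size factors, 0 with library totals, 1 with TMM without haemoglobin rows, 11 with no filter, 11 without robust moderation, 1 with DESeq2 and 0 with limma at either pseudocount. Leaving out a library gave 0 to 19 higher and 0 to 1 lower. The causes were not tested.

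With library totals without TMM, an alternative chosen after seeing the data, the medians for DMM against sham were 0.12 over all members and 0.21, 0.0689, 0.12 and 0.12 in complexes II to V. For M05 against M04 they were 0.13 over all members and 0.14, -0.0804, 0.13, 0.0505 and 0.10 in complexes I to V. Over genes with at least 1000 summed counts, complex IV stood at 0.36 (0.29 with all its members). Leaving out a library gave ranges for DMM against sham of -0.18 to 0.21 over all members, and in complexes I to V of -0.19 to 0.24, 0.0343 to 0.20, -0.26 to 0.17, -0.20 to 0.21 and -0.14 to 0.20. For M05 against M04 they were 0.33 to 0.37 over all members, and 0.33 to 0.42, 0.0786 to 0.22, 0.35 to 0.41, 0.28 to 0.35 and 0.30 to 0.38. The fits of 3 libraries have no second term, so mouse and surgery mix in them. Of single members, 68 of 81 changed sign for DMM against sham in at least 1 of these fits and 11 for M05 against M04; none of the called values did.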
